A study of Nannochloropsis oceanica with 6 samples.

Results

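The transcript pool of nitrogen-replete, growing cells of the marine microalga Nannochloropsis oceanica was described from the 2 libraries labelled C0, out of 6 RNA libraries in the series. Genes were ranked by their mean TPM in those libraries, and all 10569 genes listed in the tables were members. TPM is a read count divided by the effective length of a gene and scaled so that a library sums to 1000000, so it can be compared between genes. Cells of strain IMET1 had been grown in modified f/2 seawater medium with 1 g/L of NaNO3, at 25 °C under continuous light (80 µmol of photons each second per square metre), in a column reactor bubbled with air. They were collected in the logarithmic phase, at an OD750 of 2.5 per the labels, before any transfer to medium without nitrogen. The text of the study states a lower density. The other 4 libraries, taken after that transfer, were not used. The study calls the C0 libraries biological replicates, but the labels do not say whether they came from separate cultures, so their spread may be technical, and a value written with ± is the mean with its SD (n = 2), with no test.

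Nannochloropsis is a eustigmatophyte, a small alga related to brown algae and diatoms, with chlorophyll a as its only chlorophyll. It is known for its store of triacylglycerol (TAG), a neutral oil, and for making the long polyunsaturated fatty acid EPA. A growing algal cell spends much of its messenger RNA on ribosomes, which make protein, and on the light-harvesting proteins that bind pigment and pass light energy to the photosystems.

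The libraries held 5031277 and 5198270 estimated counts. At an effective length of 1000 bases, the part of a gene where a fragment can start, 1 count was worth 0.296 TPM in replicate 1 and 0.284 TPM in replicate 2. At 10 bases 1 count was worth 29.6 and 28.4 TPM, so the shortest genes can reach a high TPM on few counts. The 701 genes with an effective length under 200 bases held 9.68% ± 0.198 of the TPM and 0.606% ± 0.0085 of the counts. No gene had a match, by KO gene name, to the plastid genes psbA, psaA or rbcL or to the mitochondrial genes cox1 or cob, and no gene was described as a chain of ribulose bisphosphate carboxylase, the enzyme that fixes carbon dioxide. The pool described here is therefore that of the genes in these tables, after poly-A selection.

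The pool was spread over many genes. The 778 highest genes, 7.36% of those listed, held 50% of the mean TPM, and 5039 genes held 90%. The 10 highest held 5.12% ± 0.111, the 100 highest 20.5% ± 0.186 and the 1000 highest 54.5% ± 0.0571. A mean of 1000 TPM or more was reached by 128 genes, which together held 23.5% of the TPM. A further 2116 genes between 100 and 1000 TPM held 47.6%, and the 6362 genes between 10 and 100 TPM held 28.2%. The median gene stood at 41.4 TPM. A count of 0 in both libraries was listed for 505 genes (4.78%), 36 of which carried a KEGG pathway. At these depths 3 counts, the limit that a count of 0 allows, came to 5.96e-05% and 5.77e-05% of a library, and such limits cover counting error only.

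**Figure D1:**
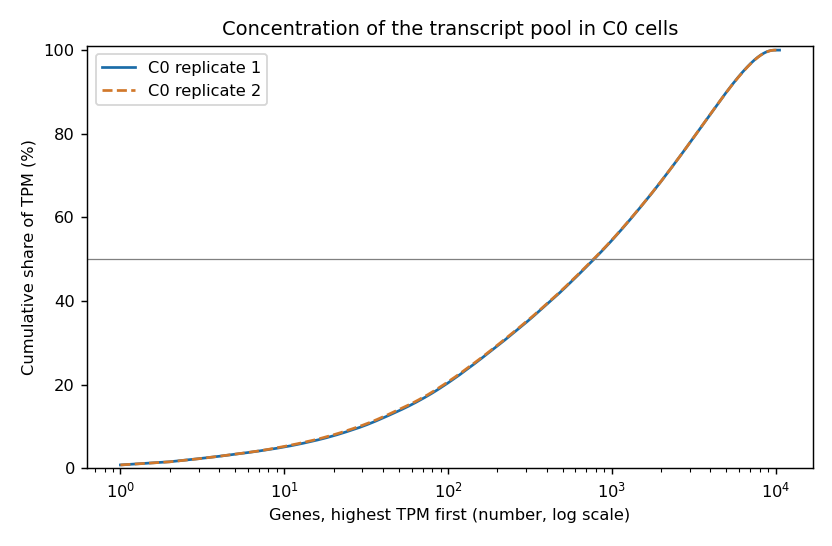
Cumulative share of TPM (%, vertical) against the number of genes, highest TPM first (log scale), for C0 replicate 1 (solid) and replicate 2 (dashed). The curves lie on each other and cross the grey line at 50% after 780 genes in replicate 1 and 774 in replicate 2.

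The highest transcripts came from genes with no description in the tables. NO03G05720 stood at 7587 and 7654 TPM in replicates 1 and 2, NO24G02220 at 7707 and 7333, and NO16G02610 at 7371 and 7503, so the order of these 3 genes was not the same in the 2 libraries. They held 2.26% ± 0.0124 of the pool, on between 22768 and 35776 counts each. NO14G02950, also without a description, followed with 5704 and 5949 TPM, on 3843 and 4161 estimated counts. Its effective length was short, 199.3 bases, and it ranked 148 by counts. Of the 30 highest genes 10 had no description, as had 23 of the 100 highest. Across all genes, 3822 (36.2%) had none, and they held 27.5% ± 0.0557 of the TPM, with a median of 24.5 TPM against 51.7 TPM for the described ones.

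Genes of translation and light harvesting came next. Elongation factor 1-alpha, the protein that brings aminoacyl-tRNA to the ribosome, was listed at 2 adjacent loci, NO22G01450 with 4894 and 5005 TPM and NO22G01440 with 3137 and 3139 TPM. The gene models are 537 and 780 bases long, and whether they are parts of 1 gene was not tested. The light-harvesting protein NO02G05990, described as chlorophyll a-b binding protein L1818, had 4076 and 4103 TPM. A gene described as CBL-interacting protein kinase 8 (NO25G01890), a class of kinase that plants regulate by calcium sensors, had 3458 and 3446 TPM and the second highest count of the pool.

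Further genes among the 30 highest covered several roles. Small heat shock protein 16 (NO20G02130), a chaperone that keeps unfolded proteins from clumping, had 3044 and 2987 TPM. The Rieske subunit of cytochrome b6-f (NO05G02050, petC), which carries electrons between the photosystems, had 2839 and 3122 TPM. Beta-glucosidase 4 (NO29G01640), which splits glucose from sugar chains, had 2798 and 2818 TPM. These 3 genes rested on at least 6823 estimated counts in each library, which were fractional for NO20G02130 and NO05G02050. Another locus described as heat shock protein 16, NO20G02150, had 1274 and 1187 TPM, also on fractional counts. Whether it shares reads with NO20G02130 was not tested, so the split between these loci is uncertain. Stearoyl-CoA desaturase 5 (NO16G01570), which puts the first double bond into a saturated fatty acid, had 2455 and 2480 TPM, and a gene described as alpha-ketoglutarate-dependent taurine dioxygenase (NO02G06060) had 2091 and 2129 TPM.

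Among the 30 highest were also 10 genes of ribosomal proteins, led by S26 (NO09G01420) with 3017 and 3587 TPM, L36 (NO03G00290) with 2660 and 2710 TPM and the acidic stalk protein P2 (NO06G04320) with 2508 and 2622 TPM. A locus for S18, whose identifier carries no chromosome number, had 2556 and 2423 TPM. The other 6, NO06G02310 (L23), NO10G00250 (L2), NO28G00880 (S23), NO21G01530 (S15), NO05G03520 (S15a) and NO28G00080 (L23A), lay between 2077 and 2440.2 TPM in both libraries. S26 and P2 have effective lengths of 61.4 and 83.6 bases, and ranked only 1789 and 1674 by counts. Effective lengths of L23, S23, S15, S15a and L23A were also under 200 bases.

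Of these 30 genes 10 had an effective length under 200 bases, where TPM rests on few bases. NO04G03470, with no description, reached 2983 and 3664 TPM on 89 and 113 counts at an effective length of 8.83 bases. NO22G01500, described as an uncharacterized protein, reached 2161 and 2715 TPM on 100 and 130 counts. In counts the order was another: 4 of the 10 and 41 of the 100 highest genes by TPM were also the highest by counts. The remaining undescribed genes of the 30 were NO10G02310 with 3635 and 3754 TPM, its neighbour NO10G02300 with 2538 and 2645 TPM, NO02G05460 with 2509 and 2609 TPM, NO16G01100 with 2388 and 2337 TPM, and NO06G00260 with 2329 and 1990.12 TPM. The neighbours NO10G02310 and NO10G02300 have models of the same length, 828 bases, and fractional estimated counts. Reads may be shared between them, which was not tested, so the split between these loci is uncertain.

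**Figure D2:**
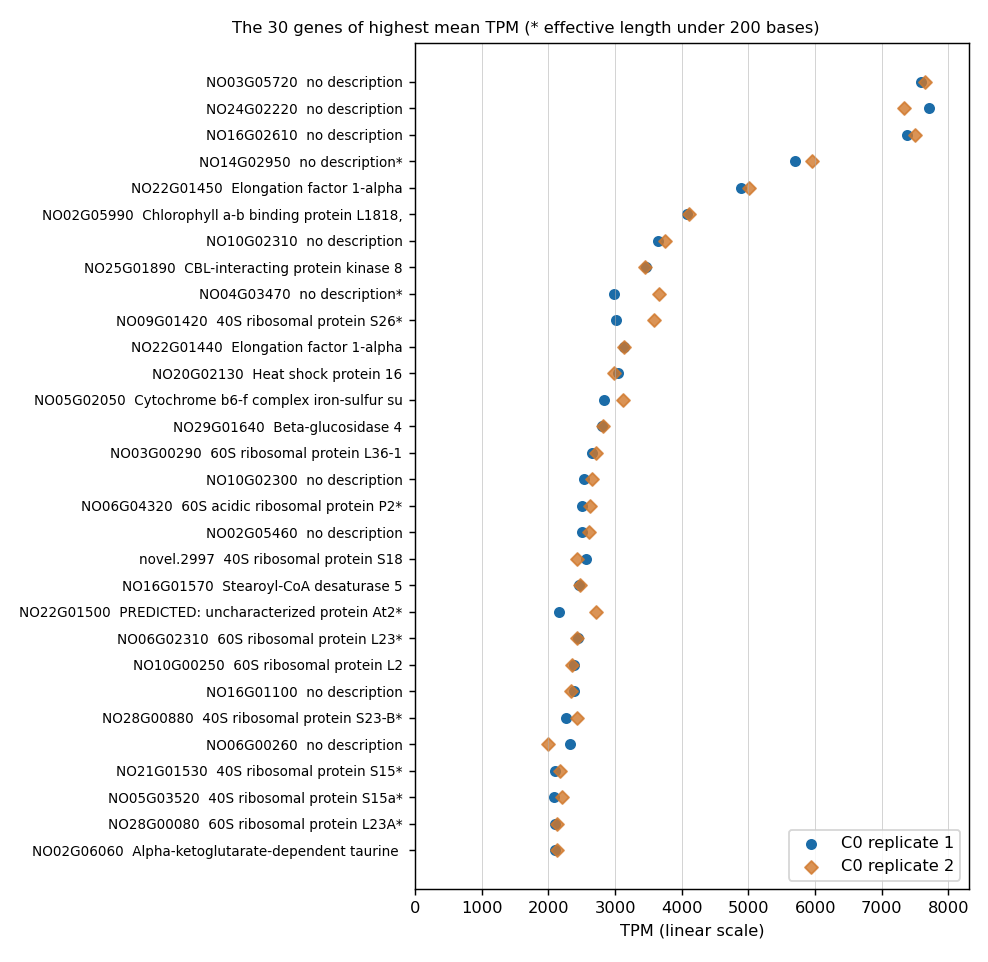
TPM (linear scale) of the 30 genes of highest mean TPM in C0 replicate 1 (circles) and replicate 2 (diamonds), highest at the top, with a star for genes of an effective length under 200 bases. NO03G05720, NO24G02220 and NO16G02610 stand apart from the rest, and the widest gap between the libraries on this scale is that of NO04G03470, at 2983 and 3664 TPM.

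Among the KEGG pathways, with a gene of several pathways split evenly among them, Ribosome held the largest share, 11.0% ± 0.0645. Photosynthesis antenna proteins followed with 2.37% ± 0.0131, RNA transport with 2.00% ± 1.56e-05, protein processing in the endoplasmic reticulum with 1.59% ± 0.018, spliceosome with 1.43% ± 0.0179 and oxidative phosphorylation with 1.28% ± 0.0342. These were the only 6 of 128 pathways with at least 1% of the TPM. The second place depends on the rule: with each gene counted whole, the biosynthesis of amino acids held 2.88% and antenna proteins 2.37%, and by counts protein processing held 1.81% and antenna proteins 1.71%. A pathway was given for 2344 genes, which held 39.0% ± 0.0705 of the TPM, and 758 of them belonged to several.

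The genes that led a pathway did not always do what its name says. RNA transport was led by NO22G01450 and NO22G01440, the elongation factors of translation, while protein processing in the endoplasmic reticulum was led by NO20G02130 and by heat shock protein 81-1 (NO03G01460), an HSP90 chaperone of 1688 and 1652 TPM. Spliceosome was led by an HSP70 chaperone (NO23G00640), which folds new proteins, with 1579 and 1571 TPM, and by small nuclear ribonucleoprotein G (NO17G00600), with 1096 and 1306 TPM on 43 and 53 counts. Oxidative phosphorylation was led by a vacuolar proton pump driven by pyrophosphate (NO13G01250, 756 and 808 TPM) and by an ATP synthase gamma chain (NO05G03630, 634 and 644 TPM).

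Pathways below 1% of the TPM included the biosynthesis of amino acids with 0.881% ± 0.00148 (2.88% counted whole), led by ketol-acid reductoisomerase (NO15G02780, 1329 and 1328 TPM), of the branched-chain amino acid route, and pyrroline-5-carboxylate reductase (NO02G00970, 1051 and 1016 TPM), the last step to proline. Photosynthesis held 0.862% ± 0.0108 and was led by NO05G02050 and by the manganese-stabilizing protein of photosystem II (NO24G01680, psbO), with 1281 and 1315 TPM. Carbon metabolism held 0.583% ± 0.00265, or 2.22% where each gene was counted whole, and was led by transketolase (NO08G02220) and a plastid glyceraldehyde-3-phosphate dehydrogenase (NO27G00910), both of the Calvin cycle.

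Ribosome biogenesis held 0.816% ± 0.00546, with the GTPase Ran (NO02G01940, 719 and 684 TPM) and a gene described as a mediator subunit (NO02G00490, 503 and 454 TPM) highest. RNA degradation held 0.559% ± 0.00276, led by polyadenylate-binding protein (NO02G00500, 1163 and 1324 TPM) and 60 kDa chaperonin 1 (NO11G02260, 674 and 662 TPM). Aminoacyl-tRNA biosynthesis held 0.622% ± 0.00922, and its highest gene, NO02G00290 with 266 and 254 TPM, was described as a mitochondrial alternative oxidase, so its description and its pathway differ, ahead of an arginine-tRNA ligase (NO04G02920, 236 and 231 TPM).

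Purine metabolism held 0.528% ± 0.00897, led by the nucleoside diphosphate kinases NO01G02320 (646 and 663 TPM) and NO16G02670 (493 and 450.4 TPM), which make nucleoside triphosphates. Ubiquitin mediated proteolysis held 0.475% ± 0.00455, led by a ubiquitin-conjugating enzyme E2 (NO11G03490, 483 and 470 TPM) and cullin-4 (NO10G02850, 449 and 441 TPM), a scaffold of ubiquitin ligases. Peroxisome held 0.474% ± 0.0109, led by genes described as protein sym-1 (NO05G03010, 750 and 718 TPM) and PXMP2/4 family protein 4 (NO04G02750, 744 and 704 TPM).

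Of 25 KOG classes, 14 held at least 1% of the TPM, and the 4291 genes with a class held 51.6% ± 0.0157. Translation and ribosome structure (class J) held the most, 14.3% ± 0.0469 in 353 genes. Protein turnover and chaperones (class O) had 682 genes and 7.08% ± 0.00407, while genes of general function only (class R) held 4.53% ± 0.0193, energy production (class C) 3.31% ± 0.00726 and RNA processing (class A) 3.04% ± 0.00399. Amino acids (class E) held 2.04% ± 0.00989, carbohydrates (class G) 1.77% ± 0.00211, lipids (class I) 1.76% ± 0.000891 and transcription (class K) 1.53% ± 0.0148. Cell cycle and division (class D) held 0.985% ± 0.00472, of which the kinase NO25G01890 was the highest gene, and replication and repair (class L) held 0.648% ± 0.00535.

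The 29 lists of genes, made as searches in the descriptions, held 1281 genes and 29.8% ± 0.107 of the TPM. Ribosomal proteins, with 120 genes, held 11.0% of the TPM in replicate 1 and 11.1% in replicate 2, and 5.0% of the counts, since their models are short (median 1071 bases). Chaperones held 2.60% in both libraries, light harvesting 2.26% and 2.28%, and translation factors 2.22% and 2.20%. At the other end, lipases held 0.136% and 0.139% and autophagy, the breakdown of the cell's own parts, 0.0749% and 0.0733%. The list medians ran between 27.8 TPM in lipases and 868 TPM in ribosomal proteins, beside the 41.4 TPM of all genes.

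**Figure D3:**
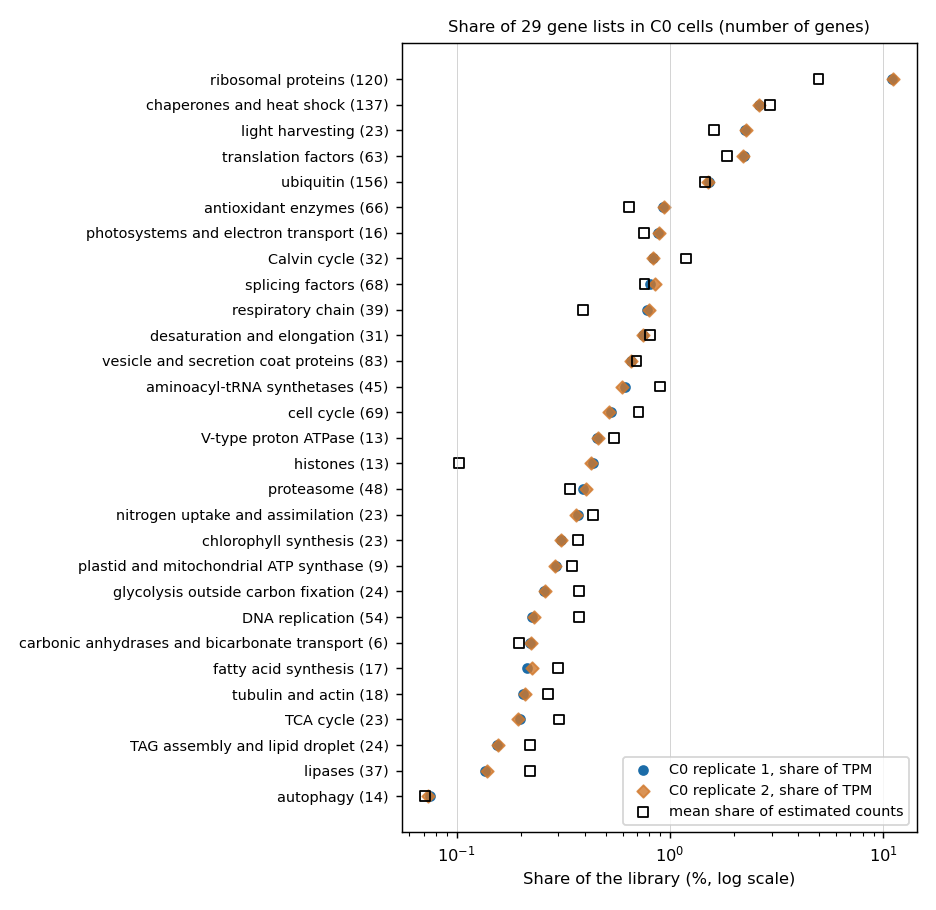
Share of each of 29 gene lists (%, log scale) in C0 replicate 1 (circles) and replicate 2 (diamonds) as TPM, and as the mean share of estimated counts (open squares), with the number of genes in brackets. Ribosomal proteins lie near 11% of the TPM but near 5% of the counts, and histones at 0.43% and 0.102%.

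By KO name, ribosomal protein genes fell into 3 kinds. The 32 genes of the cytosolic small subunit (40S) held 4.39% ± 0.0687 of the TPM at a median of 1304 TPM, and the 49 genes of the large subunit (60S) 5.82% ± 0.00316 at a median of 1089 TPM. The 33 genes of the organelle type, made for ribosomes like those of bacteria, held 0.712% ± 0.00744 at a median of 110.1 TPM, and 4 of them reached 500 TPM. With genes of an effective length of at least 200 bases alone, the medians were 1215 TPM (25 genes), 1064 TPM (39 genes) and 111 TPM (30 genes).

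Within each kind some genes lay far from the rest. Of the small subunit, 30 of 32 genes reached 500 TPM, and those below were S13 (NO19G00670, 215 and 216 TPM) and a second locus for S18, listed at 0 in both libraries. Of the large subunit 39 of 49 reached 500 TPM. Among the lowest were both L39 genes, NO05G04080 (178 and 165 TPM) and NO05G04240 (172 and 188 TPM), and NO26G00910 (148 TPM in both), a gene of ribosome assembly rather than of the ribosome itself. TPM divides by length, and these L39 models have effective lengths of 7119 and 2430 bases, in that order, and S13 2757 bases. NO05G04080 had 4287 counts in replicate 1, and whether these models join several genes was not tested. The highest of the organelle type were S1 (NO06G01110, 1178 and 1148 TPM) and L15 (NO04G04900, 1177 and 1088 TPM), chosen, like the low ones, after their values were seen.

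Among translation factors a few genes were very high. Of 63 genes, the 3 highest held 42.8% of the list, namely NO22G01450, NO22G01440 and elongation factor 2 (NO02G03250, 1388 and 1364 TPM), which moves the ribosome along the messenger. Whether NO22G01450 and NO22G01440 are parts of the same gene was not tested. If so, this share and those of the list and of RNA transport count its transcripts more than once. The median of the list was 183 TPM. The 45 aminoacyl-tRNA synthetases, which load tRNAs with amino acids, were more even, with a median of 123 TPM, a highest mean of 281 TPM (NO05G00870, described as a methionine-tRNA ligase), followed by NO04G02920 and the alanine-tRNA ligase NO08G02150 (239 and 228 TPM), and 12.4% of the list in the 3 highest.

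All 23 light harvesting genes lay above the median gene, 22 of them at 100 TPM or more and 9 at 1000 TPM or more. The list, 0.218% of all genes, held 2.27% ± 0.0123 of the TPM. Behind NO02G05990 came NO08G03500, described as chlorophyll a-b binding protein 1, with 2083 and 1952 TPM, and NO05G01620, a relative of fucoxanthin-chlorophyll a-c proteins by its description, with 1498 and 1523 TPM. The descriptions name the best match in other species, where such proteins bind chlorophyll b or c. The neighbours NO09G00440 (1166 and 1162 TPM) and NO09G00450 (1171 and 1162 TPM) carried the same description and had nearly the same level. Both had fractional estimated counts. Reads may be shared between these neighbours, which was not tested, so the split between them is uncertain. The lowest member, NO07G03080, had 44.5 and 44.6 TPM, and none of the 23 had an effective length under 200 bases.

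Genes of the photosystems and electron transport held 0.884% ± 0.0131 in 16 genes, with 61.0% of it in petC (NO05G02050), psbO (NO24G01680) and a photosystem I antenna protein (NO12G02640, 1112 and 1111 TPM) that the light harvesting list holds too. Ferredoxin-NADP reductase (NO16G02580), which makes NADPH at the end of the chain, had 634 and 611 TPM, and PsbU (NO14G01170), an extrinsic protein of photosystem II, 580.0 and 585 TPM. The description of petC occurred at 4 loci of chromosome 5, of which NO05G02060 had 569 and 466 TPM, NO05G02070 had 382 and 427 TPM and NO05G02030 had 103 and 99.03 TPM. Their estimated counts were fractional in part, so reads may be shared among them, and the split between the copies is uncertain. The 6 genes described as ferredoxin ran between NO24G00440, with 54.8 and 51.8 TPM, and NO05G02270, with 164 and 128 TPM.

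Of the Calvin cycle, which turns carbon dioxide into sugar, 32 genes held 0.835% ± 0.00245. Transketolase (NO08G02220) had 954 and 957 TPM, glyceraldehyde-3-phosphate dehydrogenase (NO27G00910) 788 and 785 TPM and phosphoribulokinase (NO13G02830), which makes the acceptor of carbon dioxide, 734 and 721 TPM. These 3 agreed between the libraries within 2%. Of 6 carbonic anhydrase genes, whose enzymes turn bicarbonate and carbon dioxide into each other, 1 (NO20G00630, 1258 and 1219 TPM) held most of the list, ahead of the gamma carbonic anhydrases NO04G04510 (398 and 477 TPM) and NO23G01760 (317 and 287 TPM).

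Chlorophyll synthesis held 0.308% ± 0.000843 in 23 genes. Its highest member, glutamyl-tRNA reductase (NO09G01210), the first committed step of tetrapyrrole synthesis, had 674 and 703 TPM. Geranylgeranyl diphosphate reductase (NO10G02590), which makes the phytol tail, had 328 and 313 TPM, and a uroporphyrinogen-III C-methyltransferase (NO12G00790), which leads toward sirohaem rather than chlorophyll, 246 and 250.5 TPM. A gene described as chlorophyllide a oxygenase, NO16G01210, which in plants makes chlorophyll b, had 2113 and 1966 TPM, a value singled out after it was seen. This gene is not in the list, and alone holds 0.204% of the TPM. Its description names the best match in another species, while this alga has chlorophyll a as its only chlorophyll.

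Nitrogen uptake and assimilation held 0.367% ± 0.00469 in 23 genes of these nitrate-fed cells. Glutamine synthetase (NO07G03230), which binds ammonium to glutamate, was highest with 1029 and 980.45 TPM, and held 27.4% of the list. An ammonium transporter (NO09G03110) had 551 and 548 TPM, and a second one (NO20G02430) 233 and 214 TPM. Nitrate reductase NO25G00630, which turns nitrate into nitrite, had 252 and 231 TPM, a range that touches that of NO20G02430.

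The nitrate transporter NO14G02450 had 119 and 121 TPM, the second nitrate reductase gene (NO14G02460) 107 and 102 TPM, nitrite reductase (NO26G00710) 164 and 161 TPM and ferredoxin-dependent glutamate synthase (NO10G02290) 147 TPM in both libraries. The loci NO08G04040 and NO08G04050 for NADH glutamate synthase averaged 137 and 121 TPM, and the NADP-specific glutamate dehydrogenase (NO16G00690) 133 TPM. Lower members were the transporter NO30G01230 with a mean of 25.5 TPM, the Rh-type ammonium transporter NO30G00980 with 52.9 TPM, a type-1 glutamine synthetase (NO02G03600) with 47.8 TPM and the NAD-specific glutamate dehydrogenase (NO01G02980) with 39.3 TPM.

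Urease, which frees ammonium from urea, was listed at 2 loci, NO02G06090 with a mean of 41.9 TPM and NO02G06110 with 23.4 TPM. Its accessory proteins D (NO14G02290), G (NO17G01380) and F (NO08G03880) averaged 222, 121 and 71.7 TPM. The search also caught 3 genes of folate metabolism, the folylpolyglutamate synthases NO12G02010 (46.4 TPM) and NO04G00340 (30.9 TPM) and NO08G02720, which was listed at 0 in both libraries.

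Among the gene lists of lipid metabolism, the highest members were desaturases. In the list of desaturation and elongation, 31 genes held 0.745% ± 0.000587, of which NO16G01570 alone held 33.1%. Described as delta-12 desaturases, NO14G02790 (1078 and 1050.5 TPM) and NO11G02480 (645 and 678 TPM) came next, on the route to polyunsaturated fatty acids, and FAD4-like NO01G04350 was listed at 0 in both libraries. The study uses another desaturase name for NO14G02790.

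Fatty acid synthesis in the stricter sense held 0.215% and 0.225% in 17 genes, with a median of 143 TPM. The condensing enzyme KASII (NO28G00410, fabF), which adds 2-carbon units to the growing chain, had 348 and 361 TPM, an acyl carrier protein described as mitochondrial (NO29G00550) 249 and 262 TPM, and an enoyl reductase (NO11G01220) 208 and 209 TPM. Malonyl transacylase (NO07G02760), the dehydratase FabZ (NO16G02130), the reductase NO12G03960, KASIII (NO28G00420) and a second fabF (NO04G04430) averaged between 143 and 194 TPM. Acetyl-CoA carboxylase, which makes malonyl-CoA for each round, was listed at 2 loci, with NO09G00220 at 150 and 145 TPM and NO21G02220 at 47.6 and 48.6 TPM. Between 28.8 and 89.995 TPM on average lay NO01G01340, NO23G00560, NO11G01230, NO09G04000, NO10G01140 and NO05G00970, all reductases but for the last, and the reductase NO06G03900 was listed at 0 in both libraries.

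The search for TAG assembly and lipid droplets found 24 genes of acyltransferases and phosphatases, and none of a lipid droplet protein, with 0.155% and 0.157% of the TPM, a median of 66.6 TPM and 4 genes at 100 TPM or more. Diacylglycerol acyltransferase (DGAT), which makes TAG in the last step, had 7 genes described as type 2 and 2 as type 1, a count of descriptions that need not hold every DGAT gene. The study speaks of more DGAT genes than this search found. NO01G04220, described as DGAT 2D, was the highest of the list with 171 and 180.03 TPM, while the 6 others of type 2 averaged between 28.0 TPM (NO10G04120) and 80.5 TPM (NO07G01760), with NO26G01460, NO01G01000, NO22G00630 and NO01G00990 in between. Of type 1, NO19G00260 (1B) had 94.0 and 96.0 TPM and NO14G03060 (1C) 15.7 and 18.2 TPM, and the phospholipid:diacylglycerol acyltransferase NO13G01310, which takes the acyl chain from a membrane lipid, averaged 37.8 TPM.

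The earlier steps of TAG assembly lay at like levels. Glycerol-3-phosphate acyltransferases, which add the first acyl chain, averaged 116 TPM (NO12G00610) and 70.3 TPM (NO03G04130). Of the genes described as adding the second chain, NO12G00800 averaged 115 TPM, NO01G02390 93.3 TPM and NO29G00280 93.0 TPM. Those below were NO01G00580, NO19G00710, NO09G02440, NO12G03180, NO01G00600 and NO28G01540, between 12.3 and 79.2 TPM, and NO12G03190, listed at 0 in both libraries next to NO12G03180 of the same description. The study names NO12G00800 as an enzyme of the first chain. The phosphatases of lysophosphatidic acid (NO12G02990) and of phosphatidic acid (NO05G01140), the second of which makes diacylglycerol, averaged 113 and 29.5 TPM. NO11G02550, which has no description and which the study treats as the lipid droplet surface protein, had 1417 and 1403 TPM. It is not counted in the list, alone holds 0.141% of the TPM, and was looked up after the rest were seen.

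**Figure D4:**
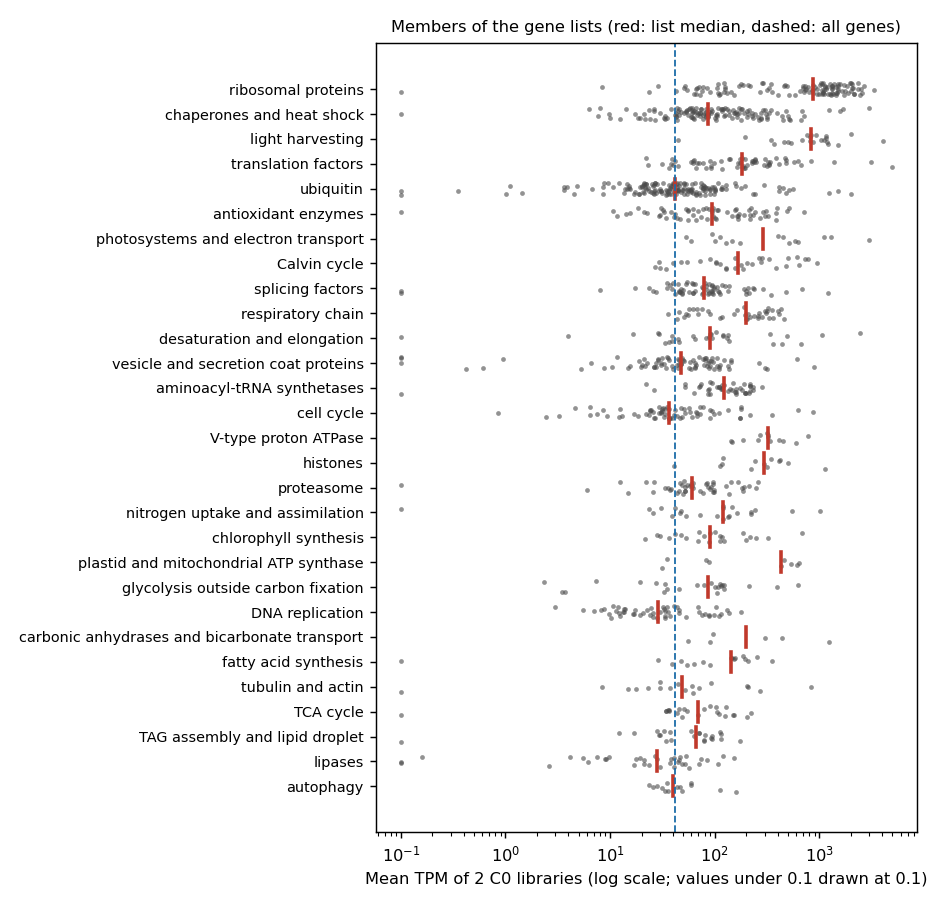
Mean TPM of the 2 C0 libraries (log scale, values under 0.1 drawn at 0.1) for each member of the 29 gene lists, with the list median in red and the median of all genes, 41.4 TPM, dashed. Ribosomal proteins and light harvesting have the highest medians, and lipases, DNA replication, cell cycle and autophagy have medians left of the dashed line.

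Of ATP synthase, the gamma chains NO05G03630 (634 and 644 TPM) and NO23G00520 (628 and 608 TPM), which turn inside the enzyme, were highest, ahead of subunit 5 (NO15G02190, 529 and 541 TPM), mitochondrial subunit beta (NO11G01140, 453 and 459 TPM) and subunit delta (NO07G01310, 441 and 411 TPM). Subunit alpha (NO09G03010), which forms the catalytic ring together with beta, was lowest of the 9 genes with 31.1 and 32.0 TPM. Subunits coded in the organelles may be missing from this list, as the organelle genes searched for by KO name had no match. The levels of alpha and beta can therefore not be set against each other. Protein I (NO14G00810) and the assembly factors NO06G04200 and NO01G01910 averaged 88.6, 83.3 and 35.2 TPM. The 39 genes of the respiratory chain held 0.786% ± 0.0101 (0.390% of the counts), with a median of 198 TPM, led by the Rieske subunit NO12G02000 (452 and 471 TPM), NO17G00740 (440 and 428 TPM) and cytochrome c1 (NO13G01820, 422 and 396 TPM).

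Proton pumps of the vacuole held 0.456% ± 0.00365 in 13 genes, all of them at 100 TPM or more, with subunit a (NO20G02230, 593 and 599 TPM) and the proteolipid subunit (NO14G03000, 463 and 442 TPM) behind NO13G01250. Glycolysis outside carbon fixation, a list without the enzymes shared with the Calvin cycle, was led by enolase (NO03G03070, 622 and 626 TPM), phosphoglycerate mutase (NO09G01900, 390 and 396 TPM) and a second enolase (NO04G01820, 213 and 216 TPM). The TCA cycle list (0.196% of the TPM, 0.303% of the counts) was led by isocitrate dehydrogenase (NO03G02920, 223 and 225 TPM), aconitase (NO02G04110, 209 and 200 TPM) and a subunit of succinate dehydrogenase (NO17G00800, 174 and 131 TPM).

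Chaperones held 2.60% ± 0.00201 in 137 genes, 63 of them at 100 TPM or more. The 3 highest, NO20G02130, NO03G01460 and NO23G00640, held 24.1% of the list. Of 156 genes whose description names ubiquitin, which together held 1.51% ± 0.00641, the highest were the fusions of ubiquitin with a ribosomal protein, NO01G04980 with S27a (2003 and 1993 TPM) and NO04G01970 with L40 (1528 and 1496 TPM), followed by polyubiquitin (NO28G00190, 1251 and 1203 TPM). The 48 proteasome genes, whose complex takes ubiquitin-marked proteins apart, had a median of 61.2 TPM, and their highest members were NO06G00810 (242 and 274 TPM), NO01G03780 (245 and 253 TPM) and NO11G02560 (216 and 210.2 TPM).

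Antioxidant enzymes held 0.937% ± 0.0075 in 66 genes, led by a microsomal glutathione S-transferase (NO04G03610, 731 and 700 TPM) and the peroxiredoxins NO15G02870 (482 and 539 TPM) and NO12G00030 (456 and 522 TPM), which remove peroxides. Splicing factors, with 68 genes and 0.827% ± 0.0302, had the largest SD for their share among the lists outside ribosomal proteins. Their 3 highest, the snRNP proteins NO17G00600, NO29G01030 (650.3 and 729 TPM) and NO01G04440 (447 and 522 TPM), all had effective lengths under 200 bases and were higher in replicate 2. In the list of vesicle and secretion proteins the gamma subunit of the Sec61 channel (NO01G02330, 904 and 875 TPM), at an effective length of 7.2 bases, came before the alpha subunit (NO14G01770, 609 and 604 TPM) and Rab-8A (NO09G01320, 310.01 and 319 TPM).

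DNA replication, with 54 genes, held 0.226% and 0.231% (0.374% of the counts) at a median of 29.02 TPM, and 17 genes lay above the median of all genes. Its highest members were DNA polymerase I (NO17G01300, 177 and 182 TPM), the helicase MCM8 (NO08G00890, 131 and 142 TPM) and the large subunit of ribonucleotide reductase (NO17G00650, 132 and 133 TPM), which makes deoxyribonucleotides. The 69 genes of the cell cycle search had a median of 36.6 TPM, below that of all genes, but included cyclin-U3-1 (NO14G02130) with 876 and 858 TPM, the kinase subunit CKS1 (NO22G00120) with 651 and 593 TPM and cyclin-Y (NO12G03480) with 360 and 352 TPM. Tubulin alpha (NO12G02410) had 828 and 838 TPM, tubulin beta (NO10G00240) 278 and 269 TPM, and actin (NO03G02620) 205 and 215 TPM.

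Histones, the proteins on which DNA is wound, held 0.430% ± 0.00641 of the TPM but 0.102% of the counts in 13 genes, 7 of which had an effective length under 200 bases. Histone H3.1 (NO11G00250) was highest with 1163 and 1129 TPM, H2A.V (NO22G01340) had 458 and 546 TPM, and H4 (NO14G01300) 450.1 and 391 TPM. H2A-IV was listed at NO10G02070 (413 TPM on average) and NO03G02000 (224 TPM), H2B at NO10G02080 (348 TPM), NO25G00810 (296 TPM) and NO25G00800 (119 TPM), and the second H4 at NO03G01960 (314 TPM). H3.2 was listed at NO03G01990 (245 TPM) and NO14G01290 (111 TPM), and the centromeric H3 (NO09G00230), which marks where chromosomes attach to the spindle, had 118 TPM. The search also held a histone deubiquitinase (NO09G00490, 40.7 TPM), which is no histone. Their levels follow poly-A selection, and the part of that step in them was not tested.

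Lipid breakdown and autophagy held the smallest shares of TPM among the 29 lists, while by counts histones (0.102%) and carbonic anhydrases (0.196%) lay below lipases (0.221%). The 37 lipases had a median of 27.8 TPM, with a patatin-like phospholipase (NO20G01990, 154 and 155 TPM), a gene described as lipase (NO18G01550, 124 and 118 TPM) and a phospholipase D (NO29G01780, 102 and 114 TPM) highest. The 14 autophagy genes lay between 23.5 and 158 TPM on average, and ATG8 (NO26G00270), the ubiquitin-like protein that coats the autophagosome, was the highest with 155 and 162 TPM, ahead of ATG3 (NO21G00480, 113 and 110.3 TPM) and ATG11 (NO08G03390, 58.5 and 59.9 TPM).

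Some high genes lay next to each other. Among the 100 highest genes 5 pairs were adjacent by identifier, 2 of them with the same description, and among the 500 highest 49 pairs were, so that 9 of 100 and 87 of 500 genes had such a neighbour. How many pairs sets of these sizes drawn from all genes would hold was not worked out, so these counts do not measure clustering. On chromosome 2 a run of 5 adjacent genes without description, NO02G05430 to NO02G05470, averaged between 602 and 2559 TPM. NO02G05450, NO02G05460 and NO02G05470 had fractional estimated counts, and whether they share reads was not tested. On chromosome 6 the adjacent genes NO06G00270 and NO06G00280 had the same values, 328 and 322 TPM each on 383 and 391 counts, and whether they share reads was not tested. By chromosome, read from the identifier, chromosome 16 held 4.61% of the TPM with 3.08% of the genes, and chromosome 30 held 0.901% with 1.27% of the genes. The median of chromosome 16 was 43.4 TPM, near the 41.4 TPM of all genes, and its gene NO16G02610 alone held 0.744% of the TPM. Chromosome 30 also had the lowest median, 18.5 TPM, and 18.7% of its 134 genes were listed at 0 in both libraries. These genes and chromosomes were singled out after their values were seen.

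The 2 libraries agreed closely. Pearson's r of log2(TPM + 1) across all genes was 0.975 and Spearman's rho of TPM 0.985, where genes do not count as independent points. It was 0.989 (Pearson) over the 9868 genes with an effective length of at least 200 bases and 0.896 over the shorter ones. The 100 highest genes of the libraries had 98 in common, and among the 100 of highest mean TPM the median difference was 1.02-fold and the largest 1.26-fold. All 128 genes at 1000 TPM or more lay within 2-fold, as did all but 14 of 2244 at 100 TPM or more and all but 126 of 8606 at 10 TPM or more.

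The difference between the libraries was somewhat larger than that of counting. For genes with 100 to 1000 mean counts the median difference was 1.07-fold, beside 1.06-fold that counting error alone would give, and for genes with 10 to 100 counts it was 1.19-fold beside 1.14-fold. On the log2 scale the median difference was 1.31 times counting error for genes with 1000 to 10000 counts, and 1.65 times for the 17 genes above that (0.018 beside 0.011). Of the 366 genes at 1 TPM or more that lay over 2-fold apart, 305 had fewer than 20 mean counts and 170 an effective length under 200 bases. Of those at 10 TPM or more, 25 had counts in 1 library alone, at most 5.

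**Figure D5:**
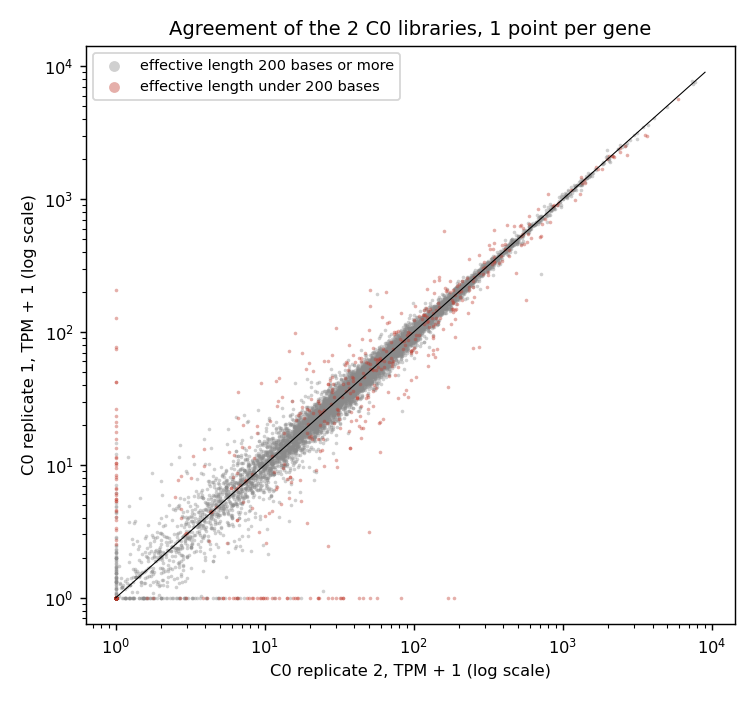
TPM + 1 of each gene in C0 replicate 1 (vertical) against replicate 2 (horizontal), both on log scales, with genes of an effective length of at least 200 bases in grey and shorter ones in red, and the line of equal values in black. Points close in on the line as TPM rises, and the red points spread more widely than the grey ones.

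Among genes of at least 10 TPM with counts in both libraries, presenilin-2 (NO09G02730), a membrane protease, lay farthest apart with 0.13 and 23.7 TPM, on 0.09 and 17.5 estimated counts. NO30G01010 had 2.12 and 49.4 TPM on 1 and 4 counts, NO28G00640 1.45 and 25.4 TPM on 0.71 and 12.8 counts, NO04G04000 2.68 and 18.1 TPM on 1 and 7 counts, and the protease WSS1 (NO24G00230) 11.5 and 58.2 TPM on 4 and 21 counts. Higher in replicate 1 were 5-hydroxyisourate hydrolase (NO09G00130), of urate breakdown, with 97.1 and 14.9 TPM on 36.2 and 5.76 counts, NO06G04740 with 34.7 and 5.57 TPM, NO04G02420 with 17.7 and 3.26 TPM, NO18G02320 with 70.5 and 13.6 TPM and NO20G02050 with 40.7 and 8.44 TPM. None of these 10 genes had more than 37 counts in a library.

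With more counts behind it, the undescribed gene NO06G00250 still differed, with 272 and 715 TPM on 1468 and 2722 counts. Its counts differed less than its TPM, so the effective length given to it also differed between the libraries. The adjacent gene NO06G00260, with fractional counts, went the other way, on 5607 and 4922 counts. Whether these neighbours share reads was not tested. Of 3 loci described as TAR1, which in Saccharomyces cerevisiae lies antisense within the ribosomal RNA gene, the highest had 879 and 750 TPM on 20161 and 17901 counts, 0.401% and 0.344% of a library. The others had 487 and 409 TPM, and 24.5 and 41.4 TPM. The libraries do not mark strand, so ribosomal RNA that escaped poly-A selection and a transcript on the other strand cannot be told apart at these loci, and their part in the shares was not tested. NO06G00250 and the TAR1 loci were chosen after their values were seen.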

How the data were processed

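Total RNA had been poly-A selected and sequenced as paired, strand-nonspecific libraries. For these libraries the authors used Trim Galore on the reads, STAR for alignment with the NanDeSyn assembly of IMET1, Picard for duplicates, and featureCounts and StringTie for levels, as named in the methods and the processing notes. No source says which of these tools wrote the per-sample tables, whose effective lengths and fractional counts are of the kind that RSEM gives. Versions are not given in the sources used here. The deposited per-sample tables hold an estimated count per gene, made by the authors from aligned reads, and the deposited TPM and FPKM columns were computed by the authors from them. TPM differed from count over effective length by a median of 0.00476% and 0.00472%. Effective lengths printed are those of replicate 1. The authors' comparison tables hold log2 fold changes, p-values and false discovery rates, computed with edgeR, and were not used.

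Shares, ranks and correlations were computed with pandas 2.3.3, numpy 2.4.6 and scipy 1.17.1, with a pseudocount of 1 for log2 values, and the code was tested on simulated data. The totals of 5031277 and 5198270 counts set the precision, and a share of TPM has no test. Of the single-transcript genes 63.5% have a length that is a multiple of 3, so many models may hold coding sequence alone, and TPM depends on such lengths. Gene lists were searches in descriptions, which also catch unrelated genes, and 13 genes are in more than 1 list. Named were the 30 highest genes, the 3 highest of each list, the 2 highest of the 15 largest pathways, the 5 genes farthest apart between the libraries in each direction at 10 TPM or more (with counts in both), and the members of 5 lists (histones, ATP synthase, nitrogen, fatty acid synthesis and TAG assembly). The members and lists were chosen with earlier results of these data known. Alternatives were a share of counts, leaving out the highest gene, short genes or either replicate, other pseudocounts and minimums, whole counting of pathways and, added after seeing the data, counts over full gene length. The RefSeq gene table for IMET1 matched 0 of the identifiers, and positions and sequences were not used here.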

Additional observations from a re-analysis of the deposited data

How the results depend on the processing

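No paired analysis was possible because the results come from no test and from 1 group. As a share of estimated counts, ribosomal proteins held 4.97%, light harvesting 1.61%, photosystems and electron transport 0.758%, chaperones 2.94%, the Calvin cycle 1.19%, genes with no description 21.9% and the 100 highest genes 16.8%. Without genes of an effective length under 200 bases these shares were 8.86%, 2.51%, 0.978%, 2.84%, 0.925%, 25.7% and 20.2%, in the same order. With counts over full gene length, chosen after seeing the data, they were 8.73%, 2.23%, 0.941%, 2.82%, 0.952%, 25.7% and 18.3%. Without the gene of highest mean TPM they were 11.1% for ribosomal proteins, 2.28% for light harvesting, 2.62% for chaperones, 0.841% for the Calvin cycle, 26.9% for genes with no description and 20.02% for the 100 highest.

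Without either replicate, the shares lay between 11.0% and 11.1% for ribosomal proteins, 2.26% and 2.28% for light harvesting, 0.874% and 0.893% for photosystems, 2.599% and 2.602% for chaperones, 0.833% and 0.837% for the Calvin cycle, 27.4% and 27.5% for genes with no description, and 20.4% and 20.7% for the 100 highest. Between 774 and 780 genes then held 50% of the TPM, and 614 and 642 genes were at 0. The Pearson correlation was 0.954 with a pseudocount of 0.1 and 0.961 over genes of at least 1 TPM. With each gene counted whole, 10 pathways held at least 1% of the TPM. At 10 TPM or more, 126 genes lay over 2-fold apart.

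The share of ribosomal proteins thus depended on the length scaling (11.1% as TPM, 4.97% as counts). With 2 libraries an SD is itself uncertain, and leaving out 1 of them leaves no spread at all.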
